A study of Mus musculus with 6 samples.

Results

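The tripartite motif (TRIM) genes described here are the mouse genes whose symbol is Trim followed by a number and at most 1 further letter. The count table listed 68 of them among 55023 genes. A filter on low counts (described with the processing) kept 45 of the 68, among 18812 genes in all, and 23 were too scarce to test. The RNA came from cultured bone marrow-derived macrophages, cells grown out of mouse bone marrow, harvested after 24 h in 3 groups of 2 libraries each. The vehicle group received vehicle, the LT group received LTα1β2 (lymphotoxin, a cytokine of the TNF superfamily that signals through the lymphotoxin beta receptor), and the LCL161 plus LT group received LTα1β2 together with LCL161, a small molecule antagonist of the cIAP1 and cIAP2 ubiquitin ligases. No group received LCL161 alone, so the comparison of LCL161 plus LT with LT gives the change on adding LCL161 in the presence of lymphotoxin. Strain, age, sex, doses and culture conditions were not given in the descriptions used here, and nothing in the labels ties the 2 libraries of a group to separate mice or cultures. The p-values below therefore set each change only against the spread between the deposited libraries, and that spread may be technical.

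TRIM proteins carry an N-terminal RING domain, which in most of them transfers ubiquitin, followed by B-box domains and a coiled coil, and they are grouped by what follows at the C terminus. The largest group ends in a SPRY domain, a binding surface for other proteins, and holds many members that are induced by interferon and act against viruses or tune the signalling of nucleic acid sensors in macrophages. Other groups end in a PHD finger and bromodomain (the TIF1 regulators of chromatin), NHL repeats, a transmembrane segment or a microtubule-binding COS box. Some members lack the RING domain, and a few are known chiefly from muscle, neurons or erythroid cells.

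Most TRIM transcripts called with lymphotoxin rose, and 8 of the 17 that rose lie in a run of neighbouring genes on chromosome 7. In LT against vehicle, 17 of the 45 tested members rose and 4 fell at an adjusted p under 0.05 by edgeR's quasi-likelihood test with Benjamini-Hochberg adjustment. Over all 18812 genes tested, 12.8% rose and 10.6% fell, or 23.4% in either direction. On adding LCL161 to LT, 9 members rose and 5 fell, against 10.6% of all genes that rose, 15.1% that fell and 25.7% called in either direction. In LCL161 plus LT against vehicle, 19 members rose and 6 fell, where 18.4% of all genes rose, 21.1% fell and 39.5% were called. The median log2 change of the tested members was 0.371, 0.109 and 0.439 in these 3 comparisons, and that of all tested genes was -0.039, 0.004 and 0.047. The comparisons share libraries, so their counts are not independent of each other.

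The balance of higher and lower calls changed little with RLE size factors and shifted with total counts. With RLE factors, 17 members were higher and 4 lower with LT, 9 and 6 on adding LCL161, and 19 and 7 against vehicle. With total counts in place of TMM factors the tallies were 17 higher and 8 lower in LT against vehicle, 7 and 9 on adding LCL161, and 15 and 10 in LCL161 plus LT against vehicle. That scaling placed the median log2 change of all genes at -0.229, -0.117 and -0.264. Without 1 vehicle library, replicate 1, only 9 members were called higher and 0 lower in LT against vehicle, while 1930 of all genes were called in place of 4401.

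**Figure D1:**
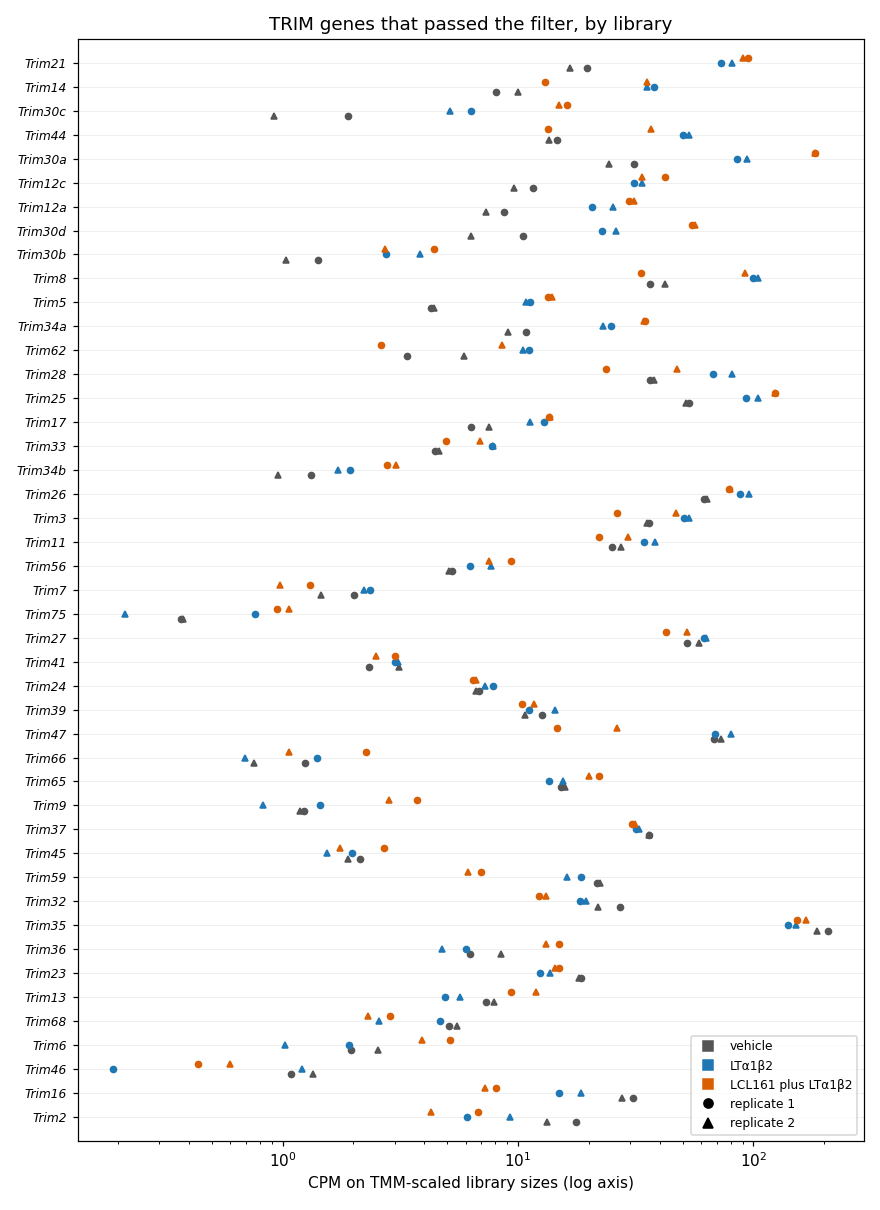
Levels of the 45 tested TRIM genes in each library, in CPM on TMM-scaled library sizes on a log axis, with genes in rows, groups by colour and replicates 1 and 2 as circles and triangles. Trim35 lies between 140 and 207 CPM in every library, and Trim30a moves from 24.3 and 31.2 CPM in vehicle to 182 in both LCL161 plus LT libraries.

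CPM are reads scaled to library size, so that levels can be compared between libraries. Total counts were 14718368 to 19049613 per library, and TRIM genes took 0.1% to 0.135% of them. A floor of 3 reads corresponded to 0.139 to 0.23 CPM. The 10 macrophage marker genes summed to 27900 to 34500 CPM in every library, with none of them at 0. The 11 stromal marker genes, which mark fibroblast-like cells, summed to 13100 and 8850 CPM in vehicle, 3910 and 5650 CPM in LT, and 1270 and 1220 CPM in LCL161 plus LT, and 8 of the 10 tested fell in each of the 3 comparisons. The 8 neutrophil markers summed to 443 to 775 CPM in vehicle and LT and to 268 and 281 CPM in LCL161 plus LT. In these bulk samples fewer cells of a type and less RNA per cell cannot be told apart. The part that these marker changes have in the TRIM results was not tested.

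The run on chromosome 7 held 10 members within 289.0 kb (GRCm38, chr7:104218793-104507849), all listed here in the SPRY class. Classes came from a list of members that was not checked against protein sequences, so a listed member may lack the domain. In chromosomal order they are Trim6, Trim34a, Trim5, Trim12a, Trim34b, Trim12c, Trim30b, Trim30c, Trim30a and Trim30d. All 10 passed the filter, 8 of them rose with LT, 5 rose on adding LCL161 (4 of those 8 and Trim6), and 10 were higher in LCL161 plus LT than in vehicle. None of the 10 was called lower in any comparison. Among all tested genes, 12.8%, 10.6% and 18.4% were called higher in these comparisons, and 10.6%, 15.1% and 21.1% lower. Trim5, Trim12a and Trim12c are the mouse relatives of primate TRIM5, the factor that recognises incoming retroviral capsids, and Trim30a is known as a brake on NF-kB signalling that acts on TAB2 and TAB3. Counts of Trim5, Trim12a, Trim12c, Trim34a and Trim34b were fractions of a read in every library. How the counting came to these fractions is not known, and sharing of reads between these close relatives was not tested. Exons of Trim12c overlap those of Gm27995 on the same strand, and exons of Trim5 those of Gm24846. The single values of these members are uncertain. Counts of Trim30a, Trim30b, Trim30c and Trim30d held fractions in some libraries, at 1757.25, 71.92, 96.17 and 486.42 reads in LT replicate 2. Their single values are uncertain in the same way.

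The sequence just upstream of 5 members is shown because 9 of the 53 members with a RefSeq promoter window hold a core of the interferon-stimulated response element, searched as GAAA, any 2 bases and GAAA on either strand. The windows run from 250 bases before to 50 after the annotated start. Over all 32851 windows of that length the letters occurred in 3.44%, and among genes in 3.99% of 27025. The 4 chromosome 7 genes below lie on the minus strand and Trim26, on chromosome 17, on the plus strand. Each line is written 5′ to 3′ along the gene from the RefSeq windows of GRCm38.p6, and the capitals mark the match, which here is the core read on the opposite strand.
Trim5: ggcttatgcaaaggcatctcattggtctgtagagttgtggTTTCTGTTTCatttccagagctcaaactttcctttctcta
Trim12c: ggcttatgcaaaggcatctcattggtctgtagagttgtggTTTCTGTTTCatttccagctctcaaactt
Trim30a: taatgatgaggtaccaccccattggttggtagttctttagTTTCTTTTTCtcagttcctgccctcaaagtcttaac
Trim30d: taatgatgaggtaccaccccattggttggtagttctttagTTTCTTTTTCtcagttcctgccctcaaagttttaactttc
Trim26: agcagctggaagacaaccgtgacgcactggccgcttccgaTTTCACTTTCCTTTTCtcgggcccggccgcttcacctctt

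These stretches are chr7:104288116-104288195 for Trim5, chr7:104353350-104353418 for Trim12c, chr7:104465194-104465269 for Trim30a, chr7:104507851-104507930 for Trim30d and chr17:36836946-36837025 for Trim26. Over the bases they share, Trim5 and Trim12c were identical at 67 of 69 positions and Trim30a and Trim30d at 75 of 76. Trim26 holds 2 overlapping matches. The windows of Trim12a, Trim34a, Trim21 and Trim2 hold the core after the annotated start and are not printed. In the chromosome 7 run, Trim6, Trim34b, Trim30b and Trim30c have windows without the core.

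Of the 35 tested members with a window, 9 held the core, and 8 of these 9 rose with LT while Trim2 fell. Trim2 holds it in 1 of its 5 windows, and Trim5, Trim12a, Trim12c, Trim30a, Trim30d and Trim34a lie in the chromosome 7 run. Of the other 26 members, 5 rose and 1 fell. On adding LCL161, 3 of the 9 rose and none was called lower, and of the 26 without the core 4 rose and 4 fell. In LCL161 plus LT against vehicle the tallies were 8 higher and 1 lower with the core, and 7 higher and 4 lower without it. Of all tested genes, 12.8%, 10.6% and 18.4% rose in these 3 comparisons, and 10.6%, 15.1% and 21.1% fell. Calls over all genes that hold the core were not counted. The letters TTCNNNGAA, the core of the gamma-activated sequence, occurred in 6 of the 53 members with a window and in 9.55% of 27025 genes. A kappa B core, searched as GGGA, any 2 bases and TTCC, occurred in 1 of the 53, Trim28, and in 1.63% of the genes. A match in such a window is a description of its letters and not a measured binding site, and members with near-identical upstream sequence are not independent cases.

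**Figure D2:**
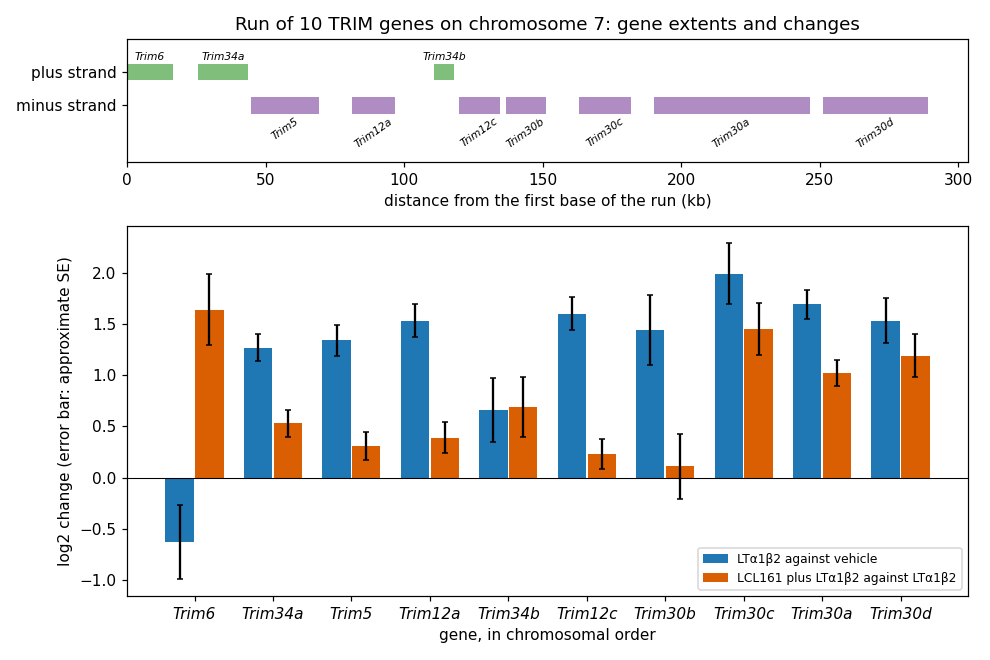
The run of 10 TRIM genes on chromosome 7: gene extents by strand against distance from the first base of the run in kb (top), and log2 changes with approximate standard errors for LT against vehicle and for LCL161 plus LT against LT (bottom). The Trim30 genes at the right end carry 3 of the 5 rises on adding LCL161, and Trim6 at the left end has no rise with LT.

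Trim30a stood at 31.2 and 24.3 CPM in vehicle, 85.1 and 93.9 CPM in LT, and 182 CPM in each library of LCL161 plus LT. The 3 groups did not overlap, and each step was upward. Its log2 change was 1.69 with LT (standard error 0.14, adjusted p = 0.000152) and 1.02 on adding LCL161 (standard error 0.13, adjusted p = 0.00128). Standard errors here are approximate, taken from the change and its F statistic.

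Its neighbours Trim30d and Trim30c followed the same 2 steps, though counts of these relatives held fractions of reads in some libraries. Trim30d was at 10.5 and 6.3 CPM in vehicle, 22.7 and 26 CPM in LT, and 54.6 and 56.4 CPM in LCL161 plus LT. The log2 changes of Trim30d were 1.53 with LT (standard error 0.22, adjusted p = 0.00251) and 1.19 on adding LCL161 (standard error 0.21, adjusted p = 0.00545). Trim30c, at 1.9 and 0.919 CPM in vehicle, reached 6.32 and 5.14 CPM in LT and 16.1 and 15 CPM in LCL161 plus LT. In both genes the 3 groups stood apart with no shared values. Trim30c had the largest log2 change against vehicle among the tested members, 3.44 (standard error 0.29, adjusted p = 6.23e-05), and its rise on adding LCL161 was 1.45 (adjusted p = 0.00525). Its rise with LT was 1.99 (standard error 0.3, adjusted p = 0.0032) and 2.62 without vehicle replicate 1. Without LT replicate 2 the adjusted p of the rise on adding LCL161 was 0.0569.

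Trim30b, the remaining Trim30 gene, was at 1.41 and 1.03 CPM in vehicle, 2.74 and 3.85 CPM in LT, and 4.41 and 2.72 CPM in LCL161 plus LT. The treated groups overlapped each other and lay above vehicle. Trim30b rose by a log2 change of 1.44 with LT (adjusted p = 0.0206), and its change on adding LCL161 was 0.11 (adjusted p = 0.82). The call with LT was lost without vehicle replicate 1, vehicle replicate 2 or LT replicate 2 (adjusted p = 0.0644, 0.0999 and 0.122). The call of Trim30b in LCL161 plus LT against vehicle, 1.55, was lost without vehicle replicate 2 or LCL161 plus LT replicate 1 (adjusted p = 0.0612 and 0.0548).

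The TRIM5 relatives rose with LT. Trim12c was at 11.6 and 9.6 CPM in vehicle, 31 and 33.7 CPM in LT, and 42.1 and 33.6 CPM in LCL161 plus LT. The vehicle libraries were lowest and the treated groups overlapped. Its log2 change was 1.6 with LT (standard error 0.16, adjusted p = 0.000442) and 0.23 on adding LCL161 (adjusted p = 0.297). Trim12a moved from 8.69 and 7.32 CPM to 20.7 and 25.4 CPM with LT and to 29.6 and 31.1 CPM with LCL161 plus LT. Trim5 moved from 4.26 and 4.41 CPM to 11.3 and 10.8 CPM and to 13.4 and 14 CPM. In both genes every treated library lay above both vehicle libraries, and the LCL161 plus LT libraries were the highest. The log2 changes with LT were 1.53 for Trim12a (standard error 0.16, adjusted p = 0.000528) and 1.34 for Trim5 (standard error 0.15, adjusted p = 0.000687). On adding LCL161 they changed by 0.39 and 0.31 (adjusted p = 0.0894 and 0.13), which did not pass the test.

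Trim34a, an interferon-induced gene of the same run, was at 10.8 and 9.09 CPM in vehicle, 24.9 and 22.9 CPM in LT, and 34.7 and 34.4 CPM in LCL161 plus LT. The 3 groups did not overlap. Trim34a rose by 1.27 on the log2 scale with LT (standard error 0.13, adjusted p = 0.00058) and by 0.53 on adding LCL161 (standard error 0.13, adjusted p = 0.0204). That second call was lost without any 1 of the 4 libraries compared, with adjusted p-values of 0.075 and 0.175 without LT replicates 1 and 2 and of 0.0581 and 0.0597 without LCL161 plus LT replicates 1 and 2. It was also lost with total counts and with a filter of at least 1 read (adjusted p = 0.0629 and 0.103). Its paralog Trim34b was scarce, at 0.959 to 1.32 CPM in vehicle, 1.72 to 1.94 CPM in LT and 2.79 to 3.03 CPM in LCL161 plus LT. Trim34b was called only in LCL161 plus LT against vehicle (log2 change 1.35, adjusted p = 0.00954), and lost that call without vehicle replicate 2 or LCL161 plus LT replicate 2 (adjusted p = 0.0699 and 0.0525).

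Trim6, which makes unanchored ubiquitin chains used by the kinase IKK epsilon, had a different course within the run. It was at 1.95 and 2.54 CPM in vehicle, 1.91 and 1.02 CPM in LT, and 5.14 and 3.91 CPM in LCL161 plus LT. Only the LCL161 plus LT libraries stood above vehicle. Its log2 change was -0.63 with LT (adjusted p = 0.262), and it rose by 1.64 on adding LCL161 (standard error 0.35, adjusted p = 0.0129). That call was lost without LT replicate 2 or LCL161 plus LT replicate 1 (adjusted p = 0.0788 and 0.0553). The call of Trim6 against vehicle, 1.01, was lost without any 1 of the 4 libraries compared (adjusted p from 0.0573 to 0.209), and with total counts or DESeq2 (adjusted p = 0.12 and 0.0846). Trim6, Trim34b and Trim30b average under 3 CPM. Over all 6641 tested genes of that abundance the median log2 change was 0.54 on adding LCL161 and 0.47 in LCL161 plus LT against vehicle, and 8.52% and 13.6% were called higher. The part that this shift of scarce genes has in their changes was not tested.

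Outside the run, the SPRY members that rose with LT were Trim21, Trim25, Trim26, Trim14 and Trim17. Of 27 tested members of the SPRY class, the run included, 13 rose and 2 fell with LT, 6 rose and 2 fell on adding LCL161, and 16 rose and 3 fell in LCL161 plus LT against vehicle. The class median log2 changes were 0.66, 0.17 and 1.01. Over all tested genes 12.8%, 10.6% and 18.4% rose, and 10.6%, 15.1% and 21.1% fell.

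Trim21 (chr7:102557921-102565486, minus strand), the cytosolic antibody receptor that sends antibody-coated particles for degradation, had the smallest p of all members with LT. It was at 19.7 and 16.7 CPM in vehicle, 72.9 and 80.9 CPM in LT, and 94.6 and 90.6 CPM in LCL161 plus LT. The groups did not overlap, with most of the distance between vehicle and LT. The log2 change with LT was 2.08 (standard error 0.12, adjusted p = 2.84e-05), and that on adding LCL161, 0.27 (adjusted p = 0.12), did not pass.

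Trim25 (chr11:88999376-89020293, plus strand), a ubiquitin ligase for RIG-I and a partner of the zinc finger antiviral protein, was at 53.4 and 51.9 CPM in vehicle, 93.2 and 105 CPM in LT, and 124 and 123 CPM in LCL161 plus LT. The order of the groups was that of Trim21 and no libraries overlapped. Trim25 rose by 0.91 on the log2 scale with LT (standard error 0.1, adjusted p = 0.000741), and its change on adding LCL161 was 0.32 (adjusted p = 0.0529).

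Trim26, encoded in the major histocompatibility region, was at 61.9 and 63.3 CPM in vehicle, 87.6 and 95.4 CPM in LT, and 78.4 and 79.5 CPM in LCL161 plus LT. LT was the highest group and vehicle the lowest, with no overlap. Trim26 rose by 0.55 on the log2 scale with LT (standard error 0.09, adjusted p = 0.00591), a call lost without vehicle replicate 1 or LT replicate 2 (adjusted p = 0.0649 and 0.0543). Its call against vehicle in LCL161 plus LT, 0.33, was lost without any 1 of the 4 libraries compared (adjusted p from 0.0783 to 0.215), with a filter of at least 1 read (adjusted p = 0.188), and with total counts, when it was 0.02 (adjusted p = 0.862). The other members of its run of 5 on chromosome 17, Trim15, Trim10, Trim40 and Trim31, were too scarce to test.

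Trim14 (chr4:46493781-46536141, minus strand), a mitochondrial adaptor of MAVS signalling without a RING domain, was at 8.08 and 9.96 CPM in vehicle, 37.9 and 35.5 CPM in LT, and 13 and 35.2 CPM in LCL161 plus LT. The 2 LCL161 plus LT libraries disagreed, replicate 1 lying near vehicle and replicate 2 near LT. Trim14 rose by 2.03 on the log2 scale with LT (standard error 0.39, adjusted p = 0.00931), a call lost without vehicle replicate 1 (adjusted p = 0.0721). Its change on adding LCL161 was -0.61 (adjusted p = 0.26), and -1.56 (adjusted p = 0.000533) without LCL161 plus LT replicate 2. Against vehicle its call in LCL161 plus LT, 1.42, was lost without vehicle replicate 1, vehicle replicate 2 or LCL161 plus LT replicate 2, when it was 1.23, 1.53 and 0.47 (adjusted p = 0.133, 0.0736 and 0.0822). Counts of Trim14 were fractions of a read in every library, and its exons overlap those of Nans on the other strand.

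Trim17 was the remaining SPRY member that rose with LT, from 6.34 and 7.56 CPM to 12.9 and 11.2 CPM, and it stood at 13.5 and 13.7 CPM in LCL161 plus LT. The treated libraries lay above both vehicle libraries. Its log2 change with LT was 0.8 (adjusted p = 0.0101), lost without vehicle replicate 1 or LT replicate 1 (adjusted p = 0.0876 and 0.0512). Exons of Trim17 overlap those of Hist3h2a on the same strand.

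Other SPRY members fell. Trim16 (chr11:62820231-62850808, plus strand), which lacks a RING domain and is known from the autophagy of damaged lysosomes, was at 30.7 and 27.6 CPM in vehicle, 14.9 and 18.5 CPM in LT, and 8.1 and 7.24 CPM in LCL161 plus LT. The groups stepped downward without overlap. It fell by 0.8 on the log2 scale with LT (standard error 0.15, adjusted p = 0.0079) and by 1.13 on adding LCL161 (standard error 0.16, adjusted p = 0.00232). The first call of Trim16 was lost without vehicle replicate 1 or LT replicate 1 (adjusted p = 0.0657 and 0.0842). The summed stromal markers given above step down across the same 3 groups, and their part in this result was not tested. Exons of Trim16 overlap those of Fbxw10 on the same strand.

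Trim47 (chr11:116105752-116127210, minus strand) showed no such first step. It was at 67.9 and 73.1 CPM in vehicle, 68.9 and 80.1 CPM in LT, and 14.7 and 26.3 CPM in LCL161 plus LT. Vehicle and LT overlapped, and both LCL161 plus LT libraries were far below them. Trim47 fell by 1.86 on the log2 scale on adding LCL161 (standard error 0.24, adjusted p = 0.00138), while its change with LT was 0.08 (adjusted p = 0.839). Trim65, whose exons overlap those of Trim47 on the same strand, moved the other way.

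Trim65 is a ubiquitin ligase for the RNA sensor MDA5, the product of Ifih1. It was at 15.2 and 15.9 CPM in vehicle, 13.5 and 15.6 CPM in LT, and 22.1 and 20 CPM in LCL161 plus LT. The last 2 libraries were the highest. Trim65 rose by 0.53 on the log2 scale on adding LCL161 (adjusted p = 0.0252), a call lost without LT replicate 1, LT replicate 2 or LCL161 plus LT replicate 1 (adjusted p = 0.166, 0.0792 and 0.112), with total counts (0.0691) or with at least 1 read (0.145). Its call of 0.44 against vehicle was lost without any 1 of the 4 libraries compared (adjusted p from 0.0724 to 0.22), and with DESeq2, at least 1 read, the 2 groups alone or total counts (adjusted p = 0.0748, 0.134, 0.0553 and 0.486). With total counts it was 0.13.

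Trim35 (chr14:66297031-66311424, plus strand) was the most abundant SPRY member per kb of exon in vehicle and in LT. It was at 207 and 187 CPM in vehicle, 140 and 152 CPM in LT, and 153 and 167 CPM in LCL161 plus LT. Vehicle was highest, and LT and LCL161 plus LT did not overlap. It fell by 0.43 on the log2 scale with LT (standard error 0.1, adjusted p = 0.0213), a call lost without vehicle replicate 1, LT replicate 1 or LT replicate 2 (adjusted p = 0.154, 0.219 and 0.0682) or with a filter of at least 1 read (adjusted p = 0.072). Its log2 change in LCL161 plus LT against vehicle, -0.3, did not pass the test (adjusted p = 0.0547). It was called with RLE size factors, DESeq2, limma voom, at least 1 read or the 2 groups alone (adjusted p from 0.0424 to 0.0486), with total counts (-0.61, adjusted p = 0.0021) and without LCL161 plus LT replicate 2 (-0.43, adjusted p = 0.0463). Trim68 was called lower in LCL161 plus LT than in vehicle (log2 change -1.04, adjusted p = 0.0304), from 5.09 and 5.51 CPM to 2.85 and 2.3 CPM. That call was lost without vehicle replicate 1, vehicle replicate 2 or LCL161 plus LT replicate 2 (adjusted p = 0.0664, 0.0895 and 0.086).

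The other 7 tested SPRY members, Trim7, Trim11, Trim27, Trim39, Trim41, Trim62 and Trim75, passed the test in none of the 3 comparisons. Trim27, a ligase of the endosomal retromer pathway, was the most abundant of them, at 52.2 and 58.7 CPM in vehicle, 61.6 and 62.8 CPM in LT, and 42.4 and 52.3 CPM in LCL161 plus LT. Its change on adding LCL161 was -0.4 (adjusted p = 0.0582), and -0.62 (adjusted p = 0.0128) without LCL161 plus LT replicate 2. Trim11 changed by 0.47 with LT (adjusted p = 0.0641) and by -0.5 on adding LCL161 (adjusted p = 0.0517), values near the threshold. The change with LT was called with limma voom, at least 1 read, at least 1 CPM in 2 libraries, the 2 groups alone or the replicate block (adjusted p from 0.00652 to 0.0495). That on adding LCL161 was called with RLE size factors, total counts, DESeq2, limma voom, at least 1 read or the replicate block (adjusted p from 0.00102 to 0.0451), and was -0.78 (adjusted p = 0.0074) without LCL161 plus LT replicate 2. Trim62, a ligase for CARD9, was at 3.38 and 5.89 CPM in vehicle, 11.1 and 10.5 CPM in LT, and 2.63 and 8.58 CPM in LCL161 plus LT. LT was its highest group, with a log2 change of 1.23 (adjusted p = 0.0945), and its change on adding LCL161 was -0.95 (adjusted p = 0.166) with all libraries and -2.1 (adjusted p = 0.00397) without LCL161 plus LT replicate 2. Against vehicle it was 0.28 with all libraries, 0.88 without replicate 1 and -0.87 without replicate 2 of LCL161 plus LT (adjusted p = 0.677, 0.0598 and 0.113). Trim39 lay at 10.4 to 14.4 CPM, Trim41 at 2.34 to 3.13 CPM, Trim7 at 0.972 to 2.36 CPM and Trim75 at 0.214 to 1.07 CPM.

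**Figure D3:**
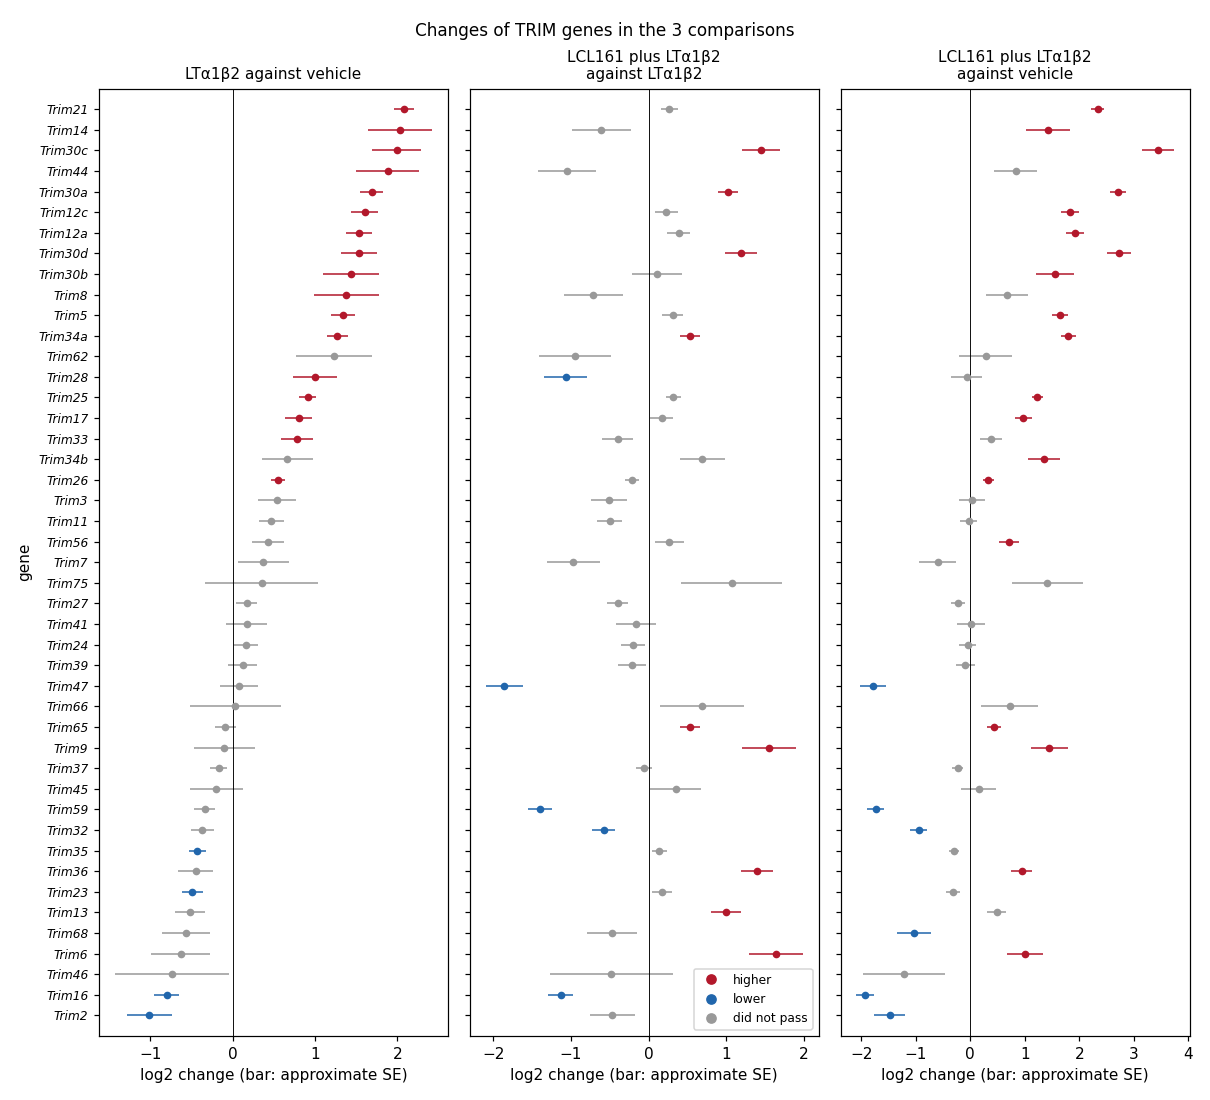
Log2 changes of the 45 tested TRIM genes in the 3 comparisons (1 panel each), with bars for the approximate standard error and colours for genes called higher, called lower or not called. The 10 genes of the chromosome 7 run lie at or right of 0 in the last comparison, where Trim30c reaches 3.44 and Trim16 -1.93.

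The TIF1 members, nuclear co-repressors, gave 2 rises in 4 tested with LT and 1 fall on adding LCL161. Of all tested genes, 12.8% rose with LT and 15.1% fell on adding LCL161. Trim28 (chr7:12999114-13031035, plus strand), the KAP1 scaffold through which KRAB zinc finger proteins recruit heterochromatin factors, was the only tested member called in opposite directions in those 2 comparisons. It was at 36.4 and 38 CPM in vehicle, 67.5 and 81.2 CPM in LT, and 23.6 and 47.3 CPM in LCL161 plus LT. LT was the highest group, while the 2 LCL161 plus LT libraries fell on either side of vehicle. The log2 change was 1 with LT (standard error 0.27, adjusted p = 0.0348) and -1.07 on adding LCL161 (standard error 0.28, adjusted p = 0.0271). The first of these was lost without any 1 of the 4 libraries (adjusted p from 0.0633 to 0.177). The second was lost without LT replicate 2 (adjusted p = 0.138) and in a fit of the 2 groups alone (adjusted p = 0.0504), and was -1.72 (adjusted p = 0.000236) without LCL161 plus LT replicate 2. Without LCL161 plus LT replicate 2, Trim28 in LCL161 plus LT was below vehicle by a log2 change of -0.72 (adjusted p = 0.0103), in place of -0.07 with all libraries.

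Trim33, which restrains SMAD4, rose from 4.44 and 4.62 CPM in vehicle to 7.75 and 7.86 CPM in LT (log2 change 0.78, adjusted p = 0.024), a call lost without any 1 of the 4 libraries (adjusted p from 0.0711 to 0.144). It stood at 4.96 and 6.89 CPM in LCL161 plus LT, below both LT libraries, where its change of -0.4 did not pass (adjusted p = 0.166). Without LCL161 plus LT replicate 2 that change was -0.72 (adjusted p = 0.0488). Trim24, at 6.42 to 7.86 CPM in all libraries, and Trim66, at 0.695 to 2.26 CPM, passed in no comparison.

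Among 11 genes of the heterochromatin and Smad partners of the TIF1 proteins, 2 rose and 2 fell with LT. On adding LCL161, 5 fell and none was called higher. The shares of all tested genes were 12.8% higher and 10.6% lower with LT, and 10.6% and 15.1% on adding LCL161. The 5 became 2 without LT replicate 2 and 8 with a filter of at least 1 read. With LT the list had 1 higher and 1 lower call without any 1 of the 4 libraries, and 1 higher and 4 lower with total counts. Smad4, the shared signal carrier of the TGF beta pathway, was at 6.11 and 6.16 CPM in vehicle, 24.7 and 24.3 CPM in LT, and 6.85 and 8.88 CPM in LCL161 plus LT. The LT libraries stood far above the others. Its log2 changes of 2 with LT (adjusted p = 0.000139) and -1.64 on adding LCL161 (adjusted p = 0.000388) have the same signs as those of Trim28. Cbx5, which encodes the heterochromatin protein HP1 alpha, fell at both steps, by 0.83 and 0.5 on the log2 scale (adjusted p = 0.00278 and 0.0227), and its second call was lost without LT replicate 2 or LCL161 plus LT replicate 2 (adjusted p = 0.118 and 0.0537). Cbx3, a second heterochromatin protein gene, fell by 0.56 with LT (adjusted p = 0.0251), a call lost without any 1 of the 4 libraries (adjusted p from 0.0828 to 0.153) or with at least 1 read (adjusted p = 0.0725). Dnmt1, the maintenance DNA methyltransferase, fell by 0.55 on adding LCL161 (adjusted p = 0.00421). The median log2 change of the 11 was 0.05 with LT and -0.38 on adding LCL161.

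Of the members with no named C-terminal domain, 3 were tested and 2 rose with LT, where 12.8% of all tested genes rose. Trim8 (chr19:46501702-46516848, plus strand), a ligase that acts on SOCS1 and on TAK1, was at 36.4 and 42.3 CPM in vehicle, 100 and 105 CPM in LT, and 33.2 and 92.4 CPM in LCL161 plus LT. In replicate 1 of LCL161 plus LT it lay below vehicle and in replicate 2 near LT. Trim8 rose by 1.38 on the log2 scale with LT (standard error 0.39, adjusted p = 0.0375), a call lost without any 1 of the 4 libraries (adjusted p from 0.0958 to 0.193). On adding LCL161 its change was -0.71 (adjusted p = 0.204), and -1.69 (adjusted p = 0.000174) without LCL161 plus LT replicate 2. Against vehicle its change in LCL161 plus LT was 0.67 (adjusted p = 0.2), and it was 1.22 (adjusted p = 0.00019) without replicate 1 and -0.31 (adjusted p = 0.14) without replicate 2 of that group.

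Trim44 (chr2:102300119-102407828, minus strand), a RING-less member with a ubiquitin-binding zinc finger, was at 14.6 and 13.5 CPM in vehicle, 50 and 53.5 CPM in LT, and 13.4 and 36.8 CPM in LCL161 plus LT. In LCL161 plus LT, replicate 1 was just below vehicle and replicate 2 lay between vehicle and LT. Trim44 rose by 1.88 with LT (standard error 0.38, adjusted p = 0.0114), a call lost without vehicle replicate 1, vehicle replicate 2 or LT replicate 2 (adjusted p = 0.067, 0.0635 and 0.0555). Its change on adding LCL161 was -1.05 (adjusted p = 0.0774), and was -0.51 (adjusted p = 0.0331) without replicate 1 and -2.02 (adjusted p = 9.19e-05) without replicate 2 of LCL161 plus LT. Against vehicle the change of Trim44 was 0.83 (adjusted p = 0.124), and 1.37 (adjusted p = 0.000101) and -0.14 (adjusted p = 0.505) without those 2 libraries in turn. With a filter of at least 1 read, Trim8 and Trim44 were called higher than in vehicle (adjusted p = 0.000168 and 2.47e-05).

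Trim56, an antiviral ligase, was at 5.23 and 5.08 CPM in vehicle, 6.25 and 7.65 CPM in LT, and 9.34 and 7.51 CPM in LCL161 plus LT. Its change with LT, 0.43, did not pass (adjusted p = 0.142). It was called higher in LCL161 plus LT than in vehicle (log2 change 0.71, adjusted p = 0.0206), and lost that call without vehicle replicate 1, vehicle replicate 2 or LCL161 plus LT replicate 1 (adjusted p = 0.0992, 0.109 and 0.115) or with total counts (log2 change 0.4, adjusted p = 0.147).

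The disagreement between the LCL161 plus LT libraries reached further members. In 10 of the 45 tested members (22.2%) these 2 libraries differed by more than 1.5-fold after 0.5 CPM was added, where 13.5% of all tested genes did. In vehicle the counts were 3 members (6.67%, all genes 8.19%) and in LT 5 members (11.1%, all genes 11.8%). Of the 10, 7 were lower in replicate 1 than in replicate 2, namely Trim14, Trim28, Trim3, Trim44, Trim47, Trim62 and Trim8, and their levels were 1.78 to 3.27 times as high in replicate 2. Trim2, Trim30b and Trim66 were lower in replicate 2. Without replicate 2 of LCL161 plus LT, log2 changes on adding LCL161 were -1.69 for Trim8, -2.02 for Trim44 and -2.1 for Trim62. With all libraries they were -0.71, -1.05 and -0.95. Numbers of calls on leaving out each library are given in the closing section, beside those over all genes.

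The GC content of the longest transcript of those 7 members was 46.7% to 64.1% with a median of 58.7%, and that of the 45 tested members was 37.4% to 64.1% with a median of 49.1%. Across the 45 members the log2 ratio of replicate 2 to replicate 1 had a Pearson correlation with GC content of 0.45 in LCL161 plus LT, 0.43 in vehicle and 0.18 in LT. Across 18535 tested genes with a GC value it was 0.27, -0.01 and 0.16. These points come from the same 2 libraries in each group and are not independent. Map3k7 and Jak2, genes of the pathway lists chosen here after their values were seen, show the same split, at 32.1 and 76.2 CPM and at 43.9 and 135 CPM in the 2 LCL161 plus LT libraries.

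**Figure D4:**
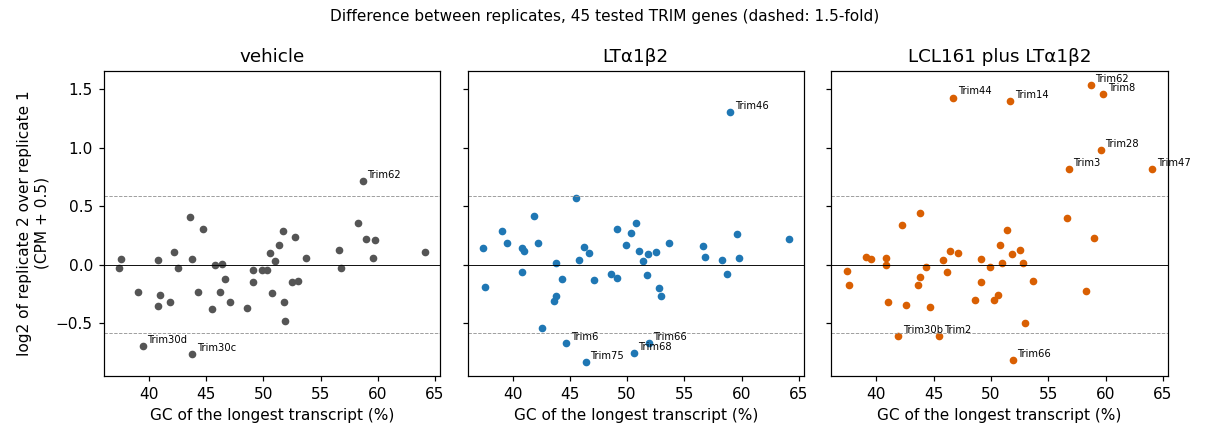
Log2 ratio of replicate 2 to replicate 1 (CPM + 0.5) against the GC content of the longest transcript in percent, 1 panel for each group and 1 point for each of the 45 tested TRIM genes, with dashed lines at a 1.5-fold difference. In LCL161 plus LT, Trim14, Trim28, Trim3, Trim44, Trim47, Trim62 and Trim8 lie above the upper line, while 1 gene does so in vehicle and 1 in LT.

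The NHL members, known from neurons, muscle and stem cells, gave no rise among 3 tested. Of all tested genes, 12.8%, 10.6% and 18.4% rose in the 3 comparisons, so a class this small cannot be set apart from them. Trim3, the most abundant of them per kb of exon, was at 36.2 and 35.4 CPM in vehicle, 50.8 and 53.4 CPM in LT, and 26.3 and 46.9 CPM in LCL161 plus LT. The last 2 libraries lay on either side of vehicle. Its changes of 0.54 with LT and -0.51 on adding LCL161 did not pass the test (adjusted p = 0.136 and 0.143), and the latter was -1.05 (adjusted p = 0.000846) without LCL161 plus LT replicate 2. Against vehicle its change turned from 0.03 to -0.51 (adjusted p = 0.0193) without that library and was 0.38 (adjusted p = 0.0475) without replicate 1.

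Trim2, a ligase for neurofilament light chain, fell from 17.6 and 13.3 CPM in vehicle to 6.06 and 9.22 CPM in LT (log2 change -1.01, adjusted p = 0.0309). That call was lost without vehicle replicate 1 or LT replicate 1 (adjusted p = 0.18 and 0.204). It stood at 6.79 and 4.29 CPM in LCL161 plus LT, overlapping LT. Trim32, mutated in a limb-girdle muscular dystrophy, was at 27.2 and 21.8 CPM in vehicle, 18.3 and 19.5 CPM in LT, and 12.3 and 13.1 CPM in LCL161 plus LT, in 3 groups without overlap. Trim32 fell by 0.58 on the log2 scale on adding LCL161 (adjusted p = 0.0277), a call lost without LT replicate 2 or LCL161 plus LT replicate 1 (adjusted p = 0.129 and 0.087), and was lower than in vehicle by a log2 change of -0.95 (adjusted p = 0.00169). The summed stromal markers step down with both genes, and their part was not tested.

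The pair of transmembrane members of the endoplasmic reticulum moved in opposite directions on adding LCL161. Trim59 (chr3:69035288-69044755, minus strand) was at 21.7 and 22.4 CPM in vehicle, 18.5 and 16.2 CPM in LT, and 6.97 and 6.13 CPM in LCL161 plus LT. Its groups stepped downward without overlap, with the larger step between LT and LCL161 plus LT. Trim59 fell by 1.4 on the log2 scale on adding LCL161 (standard error 0.15, adjusted p = 0.00055), which was the smallest p of all members in that comparison. Its change with LT was -0.34 (adjusted p = 0.107). As with Trim16, the summed stromal markers step down across the same 3 groups, and their part in the fall of Trim59 was not tested. Trim13, which takes part in degradation from the endoplasmic reticulum, was at 7.29 and 7.92 CPM in vehicle, 4.89 and 5.67 CPM in LT, and 9.3 and 11.9 CPM in LCL161 plus LT. The LT libraries were the lowest and the LCL161 plus LT libraries the highest. Trim13 rose by 1 on the log2 scale on adding LCL161 (standard error 0.19, adjusted p = 0.00695), and without LT replicate 1 by 0.84 with an adjusted p of 0.0507.

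The COS-FN3-SPRY members bind microtubules, and 2 of 3 tested rose on adding LCL161, where 10.6% of all tested genes rose. Trim36 was at 6.25 and 8.49 CPM in vehicle, 6 and 4.76 CPM in LT, and 15 and 13.2 CPM in LCL161 plus LT. The last 2 libraries stood well above the rest, while every LT value was below every vehicle value. Trim36 rose by 1.4 on the log2 scale on adding LCL161 (standard error 0.21, adjusted p = 0.00261) and was higher than in vehicle by 0.94 (adjusted p = 0.00764), a call lost without vehicle replicate 1, when the change was 0.68 (adjusted p = 0.0642). Trim9, a ligase known from neurons, was scarce, at 0.829 to 1.44 CPM in vehicle and LT and 3.72 and 2.83 CPM in LCL161 plus LT. Its rise of 1.55 on adding LCL161 (adjusted p = 0.0163) was lost without LT replicate 2 or LCL161 plus LT replicate 1 (adjusted p = 0.101 and 0.0871). The call of Trim9 against vehicle, 1.45, was lost without either vehicle replicate or LCL161 plus LT replicate 1 (adjusted p from 0.0643 to 0.0697). The 5 neuron markers summed to 40.2 and 45.8 CPM in vehicle, 96.6 and 96.8 CPM in LT, and 61.7 and 46.8 CPM in LCL161 plus LT. Tubb3 alone made up most of the LT sum, at 72 and 85.9 CPM there and 19.7 and 20 CPM in LCL161 plus LT, while the log2 changes of the other 4 on adding LCL161 were 1.19 for Map2, 1.11 for Syt1, 0.95 for Snap25 and 0.6 for Rbfox3, with no call. Trim9 also averages under 3 CPM, the abundance at which the median over all tested genes was 0.54 on adding LCL161 and 0.47 in LCL161 plus LT against vehicle. The part of the markers and of that shift in the change of Trim9 was not tested. Trim46, which organises axonal microtubules, was at 0.191 to 1.35 CPM and passed in no comparison.

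Of the 3 members that are alone in their class, 1 was called in any comparison. Of all tested genes, 23.4%, 25.7% and 39.5% were called in the 3 comparisons. Trim37, a MATH-domain ligase of peroxisomes and centrosomes, was at 36.2 CPM in both vehicle libraries, 31.8 and 32.7 CPM in LT, and 30.4 and 31.3 CPM in LCL161 plus LT. The values fell within a narrow range, and no change passed the test (adjusted p = 0.291, 0.682 and 0.114). Trim23, which ends in an ARF GTPase domain, was at 18.5 and 18.1 CPM in vehicle, 12.4 and 13.7 CPM in LT, and 14.9 and 14.4 CPM in LCL161 plus LT, with vehicle the highest. It fell by 0.49 on the log2 scale with LT (standard error 0.13, adjusted p = 0.0274), a call lost without any 1 of the 4 libraries (adjusted p from 0.0793 to 0.249) or with a filter of at least 1 read (adjusted p = 0.178). Trim45, the member that ends in a filamin repeat, was at 1.55 to 2.7 CPM in all libraries, with overlapping groups and no call.

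Levels of different members were compared per kb of exon, as mean CPM of a group. In vehicle Trim35 led with 42.6 CPM per kb, followed by Trim47 with 25.8 and Trim8 with 10.6. In LT the order was Trim35 with 31.6, Trim8 with 27.6, Trim47 with 27.2, Trim30a with 21.8 and Trim21 with 20.7. The values of Trim8 and Trim47 in LT do not differ beyond the spread of their libraries. In LCL161 plus LT Trim30a led with 44.3 CPM per kb, ahead of Trim35 with 34.8, Trim21 with 24.9 and Trim25 with 21.5. The first place in vehicle and LT was thus held by Trim35, and in LCL161 plus LT by Trim30a.

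The 23 members that were not tested had 0 to 16 reads in a library. They include the muscle ring finger genes Trim54, Trim55 and Trim63 and the muscle membrane repair gene Trim72, which had 0 reads in all 6 libraries. Trim10 and Trim58, known from erythroid cells, Trim71, known from stem cells, and Trim67 are among them. Trim31 and Trim38, regulators of innate signalling, also failed the filter, and Trim38 had 1 or 2 reads in each library. The others are Trim15, Trim29, Trim40, Trim42, Trim43a, Trim43b, Trim43c, Trim50, Trim52, Trim60, Trim61, Trim69 and Trim80. The striated muscle markers summed to 13.7 to 33.3 CPM and the erythroid markers to 2.23 to 3.66 CPM. With a filter of at least 1 read in place of the main one, Trim69 was called higher with LT and Trim50 and Trim67 were called higher on adding LCL161. These calls rest on few reads: Trim69 had 2 and 0 reads in vehicle and 14 and 2.5 in LT, Trim50 had 0 in both LT libraries and 5 and 9 in LCL161 plus LT, and Trim67 had 2 and 1 in LT and 16 and 4 in LCL161 plus LT.

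Lists of genes known to work with TRIM proteins were counted in the same fit. Of 19 tested innate sensing proteins that TRIM proteins are known to modify or bind, 11 rose and none was called lower with LT. On adding LCL161, 9 rose. The median log2 changes were 0.72 and 0.38. Of all tested genes, 12.8% rose with LT and 10.6% on adding LCL161. The 11 became 7 without LT replicate 2. Tmem173, which encodes STING, rose with LT from 26.3 and 30.4 CPM to 106 and 112 CPM (log2 change 1.95, adjusted p = 2.93e-05). Zc3hav1, the zinc finger antiviral protein served by TRIM25, rose at both steps, by 1.28 and 0.93 (adjusted p = 0.000265 and 0.000991). Ifih1, the MDA5 sensor, rose by 1.73 with LT and by 1.76 on adding LCL161 (adjusted p = 0.000324 and 0.000263). Nlrp3 rose by 1.6 on adding LCL161 (adjusted p = 0.000525).

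Of 13 interferon signalling factors, 9 rose with LT and 4 on adding LCL161, and none was called lower. Among all tested genes, 12.8% rose with LT and 10.6% on adding LCL161. The 4 became 1 without LT replicate 1, LT replicate 2 or LCL161 plus LT replicate 2, and without that last library 1 was called lower. With total counts 2 were called lower with LT and 1 on adding LCL161. Irf1, a transcription factor of this response, went from 42.2 and 45.6 CPM in vehicle to 945 and 1030 CPM in LT (log2 change 4.5, adjusted p = 5.92e-07). Every LT library stood far above both vehicle libraries. On adding LCL161 the change of Irf1 was 0.18 (adjusted p = 0.232). Ifnar1, a chain of the type I interferon receptor, rose by 0.72 on adding LCL161 (adjusted p = 0.00209). The receptor-associated kinase gene Tyk2 rose by 0.49 in the same comparison (adjusted p = 0.00977), a call lost without LT replicate 1, LT replicate 2 or LCL161 plus LT replicate 2 (adjusted p = 0.0956, 0.0535 and 0.0748).

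Of 14 E2 ubiquitin-conjugating enzymes, which hand ubiquitin to RING ligases, 1 rose and 1 fell with LT, and 3 rose and 1 fell on adding LCL161, where 23.4% and 25.7% of all genes were called. The 3 became 1 without LT replicate 2. The gene that fell on adding LCL161 was not called without LT replicate 1 or LT replicate 2, and 3 were lower without LCL161 plus LT replicate 2. Ube2l6, the conjugating enzyme of the ubiquitin-like protein ISG15, was at 36.4 and 24.2 CPM in vehicle, 129 and 148 CPM in LT, and 384 and 438 CPM in LCL161 plus LT. Its 3 groups stepped upward without overlap, with log2 changes of 2.19 and 1.57 (adjusted p = 0.000244 and 0.000897). Ube2l3 rose by 0.49 on adding LCL161 (adjusted p = 0.00769), lost without LT replicate 2 (adjusted p = 0.0952). Ube2v2, an inactive E2 variant, fell by 0.52 with LT (adjusted p = 0.0445), lost without vehicle replicate 1, LT replicate 1 or LT replicate 2 (adjusted p = 0.296, 0.0806 and 0.23) or with at least 1 read (adjusted p = 0.0512).

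Of 8 tested tripartite motif genes whose symbols do not begin with Trim, 2 rose with LT, and 1 rose and 1 fell on adding LCL161, and 2 rose without LCL161 plus LT replicate 2. Over all tested genes, 12.8% rose and 10.6% fell with LT, and 10.6% rose and 15.1% fell on adding LCL161. A list this small cannot be set apart from these shares. Pml, the organiser of nuclear bodies, rose with LT from 43.7 and 43 CPM to 87.9 and 100 CPM (log2 change 1.12, adjusted p = 0.000345). It was at 86.6 and 81.4 CPM in LCL161 plus LT, below both LT libraries. Mefv, which encodes the inflammasome protein pyrin, was at 8.43 and 10.1 CPM in vehicle, 20.8 and 21.3 CPM in LT, and 64.4 and 65.2 CPM in LCL161 plus LT. It rose by 1.19 with LT and by 1.62 on adding LCL161 (adjusted p = 0.000627 and 0.000147). Mid2, a microtubule-binding member, fell by 1.4 on adding LCL161 (adjusted p = 0.0061).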

How the data were processed

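RNA-seq of 6 libraries was analysed, with groups read from their titles. The values that the authors deposited are unnormalised expected counts for each gene, and 33.4% of the non-zero ones are not whole. STAR 2.7.3a, DESeq2 1.26.0 and the build GRCm38 were used, per the submitters' processing notes. For the counting program, its annotation, the use of strand and the treatment of reads with several matches, nothing is given in the sources used here, so counts of paralogs and overlapping genes are uncertain.

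Expected counts were rounded. The filter filterByExpr (minimum 10 reads) kept 18812 of 55023 genes, with at least 99.5% of the counts of each library. A group-means model over all 6 libraries was fitted with edgeR 4.0.16 in R 4.3.3 (TMM factors, quasi-likelihood test, two-sided), with Benjamini-Hochberg adjustment over all genes tested and calls at an adjusted p under 0.05. There were 3 residual and 4.59 prior degrees of freedom, and the biological coefficient of variation was 13.6%. CPM used TMM-scaled library sizes. Positions, exon lengths and GC content come from GENCODE M21 (GRCm38), where all 68 members matched by symbol. The fit was tested on simulated data.

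Members, lists and tests were chosen with earlier results of these data known. Values in every library are given for the 12 members with the smallest p in LT against vehicle, the 8 with the smallest p in each of the other comparisons, the most abundant tested member of each C-terminal class and members called in opposite directions. The other members are accounted for more briefly. Pathway lists name up to 3 called genes with the smallest p with LT and up to 2 on adding LCL161. A gene that this rule names is not reported here. Alternatives were DESeq2 1.42.0, limma 3.58.1 (voom), other scalings and filters, a replicate block, the 2 groups alone, counts rounded down, and leaving out each library.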

Additional observations from a re-analysis of the deposited data

How the results depend on the processing

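Of the TRIM calls, 9 of 21 with LT, 6 of 14 on adding LCL161 and 15 of 25 in LCL161 plus LT against vehicle held under every alternative run, while 7 of 24, 12 of 31 and 10 of 20 members without a call gained one under some alternative. The number called lower with LT, 4, was 8 with total counts and 2 with a filter of at least 1 read. On adding LCL161, 5 called lower became 9 with total counts, 8 with limma voom and 14 with at least 1 read. Against vehicle, 6 lower became 10 with total counts. Leaving out 1 library gave 9 to 13 higher, 0 to 3 lower and 1930 to 2807 genes in all with LT. On adding LCL161 it gave 4 to 8 higher, 3 to 13 lower and 2332 to 4604 in all, and against vehicle 11 to 17, 5 to 9 and 4885 to 6304. Where it left a group with 1 library, that library was taken to vary like the others. A change called under the alternative had the opposite sign for Trim3 in LCL161 plus LT against vehicle (0.03 to -0.51, adjusted p = 0.0193, and 0.38 without replicate 1) and for Jak2 on adding LCL161 (0.04 to -1.05, adjusted p = 0.000962, and 0.62 without replicate 1), each without LCL161 plus LT replicate 2. Without that library the uncalled changes of Trim8, Trim44 and Trim62 against vehicle turned negative too (-0.31, -0.14 and -0.87). The cause was not tested for any of these. The same alternatives were run on the pathway lists after the data were seen. Of the interferon factors 1 to 6 were higher on adding LCL161 (4 as reported), and of the TIF1 partners 2 to 8 were lower there (5 as reported) and 1 to 4 with LT (2 as reported).

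The labels do not say whether libraries with the same replicate number form pairs. Deviations of same-numbered libraries correlated at 0.14, 0.09 and 0.16. With 2 libraries per group these values cannot show whether such libraries shared a culture or a batch. With the number as a replicate block, 18 members were higher and 3 lower with LT, 9 and 7 on adding LCL161, and 18 and 6 against vehicle. The calls of Trim2 with LT and of Trim6 against vehicle were lost there (adjusted p = 0.0527 and 0.0535). The 2 libraries per group limit the precision of every value, and members under 3 CPM rest on few reads.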
